A study of Homo sapiens with 6 samples.

Results

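The genes described here encode 10 secreted cytokines: the gp130 cytokines LIF, IL6 and IL11, the colony-stimulating factors CSF1, CSF2 and CSF3, the interleukin-1 family members IL1A, IL1B and IL18, and TSLP. They were chosen by name, and all 10 were found among the 60663 genes of the count table. The 6 RNA-seq libraries come from 5637 cells, a human bladder cancer line in long use. The series description states that every culture received dCas13b-FTO, an RNA-guided Cas13b without nuclease activity joined to the RNA demethylase FTO, whose substrate is N6-methyladenosine. In 3 libraries it was combined with a control guide RNA and in the other 3 with a guide RNA against HRAS, which encodes a RAS GTPase, and RNA was taken at 48 h. The sample titles name dCas13b without FTO, the columns name FTO, and the share of cells that took up the constructs is not given in the sources used here. The labels do not say whether libraries sharing a guide were grown as separate cultures; if they were not, the p-values rest on technical spread alone. Values of 3 libraries are listed in the order of replicates 1 to 3.

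Cytokines of the gp130 group share the receptor subunit encoded by IL6ST and signal through JAK kinases and STAT3. Colony-stimulating factors drive the growth and maturation of macrophages and granulocytes, and medium conditioned by 5637 cells has long been used as a source of them. Interleukin-1 alpha can act as its precursor, whereas interleukin-1 beta and interleukin-18 are made as precursors that caspase-1 cleaves. Many cytokine mRNAs are short-lived because proteins bind AU-rich elements, built from the pentamer ATTTA (with U for T in the RNA), in their 3′ untranslated regions.

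Of the 10 genes, 8 had enough counts to be tested, IL6 was nearly silent and TSLP was not detected. Levels are given as CPM, counts relative to library size after TMM scaling, and differences as log2 fold changes, HRAS guide minus control guide. LIF, CSF2 and CSF3 were lower with the HRAS guide in every library, and IL18 was higher in every library. IL11, CSF1, IL1A and IL1B overlapped between the groups. None of the 8 passed an adjusted p of 0.05 in edgeR or in DESeq2. In edgeR 2 of 19836 genes passed (0.0101%). LIF fell past that threshold once the GC trends of the libraries were corrected for, among the 0.190% of 19489 genes then called lower. The call held in 2 of 6 corrected fits with 1 library left out, and the correction was chosen with earlier results known.

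Library totals ran from 24968702 to 32283370 counts, and no pair of libraries agreed within sampling noise. HRAS itself averaged 182 ± 43.7 CPM in control libraries against 184 ± 16.5 CPM under its own guide (SD, n = 3), a log2 fold change of 0.01 ± 0.15 (SE). The libraries differed in how counts followed GC content: across genes (not independent replicates) Spearman's rho ran from -0.46 to 0.61 in the control group and from -0.49 to 0.27 in the HRAS guide group. The 11 epithelial and urothelial markers, all tested, summed to between 11025 and 14293 CPM in control libraries and between 11259 and 12695 CPM in HRAS guide libraries. These sums describe epithelial character and do not identify the line. The 10 blood cell markers, whose cells are common sources of these cytokines, summed to between 6.25 and 6.59 CPM and between 5.41 and 6.69 CPM. MS4A1 was at 0 in all libraries, PTPRC and CD3E were at 0 in the control libraries, and nearly all of the sum was CD14 and CSF1R. The 7 fibroblast and muscle markers summed to between 158 and 216 CPM and between 146 and 191 CPM, most of it COL1A1, and the 5 endothelial markers to between 3.87 and 4.93 CPM and between 3.76 and 4.24 CPM.

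Scaled by transcript length, which allows genes to be compared, IL1B was the most abundant of the cytokines in both groups, followed by IL1A and LIF. In the control group IL1B stood at 105 ± 5.30 CPM per kb (SD, n = 3), IL1A at 86.6 ± 12.9 and LIF at 64.5 ± 10.6. CSF3 followed at 26.1 ± 4.87 CPM per kb, IL18 at 22.5 ± 1.92, CSF2 at 13.9 ± 1.28, IL11 at 11.9 ± 1.86 and CSF1 at 8.75 ± 0.50. IL6 came last at 0.298 ± 0.153 CPM per kb. Neighbours in this order whose control libraries overlapped were IL1A and LIF, CSF3 and IL18, and CSF2 and IL11, so their order is not resolved. With the HRAS guide IL18 stood above CSF3, at 26.2 ± 1.22 against 20.1 ± 0.82 CPM per kb, and those libraries did not overlap.

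**Figure D1:**
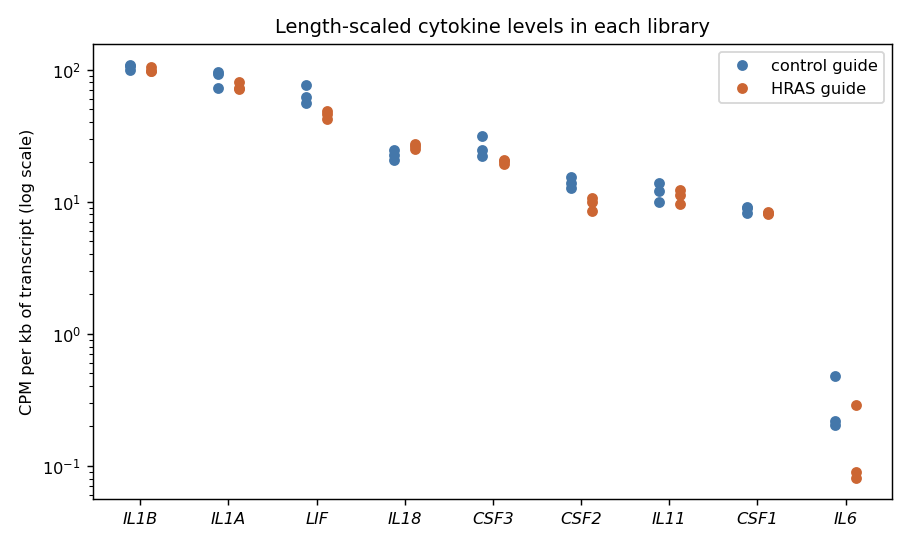
Length-scaled level (CPM per kb of transcript, log scale) of the 9 detected cytokine genes, ordered by their mean, with 1 point per library and the control guide and HRAS guide side by side. IL1B, IL1A and LIF lie highest, 5 genes lie between 8.02 and 31.6 CPM per kb, and IL6 lies below 0.48 CPM per kb.

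The AU-rich stretches of the cytokine mRNAs are shown because some of these cytokines hold dense clusters of pentamers. Holding a pentamer at all is common: 8 of the 10 genes held at least 1, as did 68.5% of tested coding genes, whose median was 2. Each is the 30-base window of the 3′ untranslated region with the most ATTTA pentamers, which are in capitals, read 5′ to 3′ from GENCODE 29 transcripts (GRCh38). The windows lie at chr5:132076076-132076105 (CSF2, plus strand), chr19:55365943-55365972 (IL11, minus), chr2:112829995-112830024 (IL1B, minus), chr17:40016979-40017008 (CSF3, plus), chr2:112774424-112774453 (IL1A, minus) and chr22:30240522-30240551 (LIF, minus).
CSF2: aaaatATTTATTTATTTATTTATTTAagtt
IL11: ccagatcttATTTATTTATTTAtttcagta
IL1B: cgcttccctATTTATTTATTTAtttgtttg
CSF3: atgtATTTAtctctATTTAatATTTAtgtc
IL1A: tATTTAtatatgtATTTAtaaatatATTTA
LIF: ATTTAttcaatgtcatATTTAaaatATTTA
In CSF2, IL11 and IL1B the pentamers overlap head to tail and also form the nonamer TTATTTATT, which the 3′ untranslated regions of 8.34% of 13810 tested coding genes hold. It occurred 3 times in CSF2, 6 times in IL11, 2 times in IL1B and 2 times in LIF, and not in CSF3, IL1A, CSF1, IL6, IL18 or TSLP.

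Counted over the whole 3′ untranslated region, CSF2 held 8 pentamers in 318 bases, and only 0.162% of 1232 genes with a region of similar length held as many. IL6 held 6 in 429 bases (0.351% of similar genes held as many), IL1B 6 in 610 bases (1.43%) and CSF3 7 in 854 bases (1.91%). The 9 pentamers of IL11 in 1618 bases (6.18%) and the 5 of IL1A in 1152 bases (18.7%) were less unusual. LIF, with 7 in 3204 bases, and CSF1, with 4 in 2154 bases, were ordinary for their length (52.3% and 59.5%). IL18 held 0 in 345 bases, and TSLP 0 in the 57 bases annotated in its principal transcript.

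The sequence GGACT, the strongest form of the consensus at which N6-methyladenosine is placed, was counted because FTO acts on that mark. LIF held 11 copies in its 3969-base transcript, 2.77 per kb, and IL1B 4 copies, 2.45 per kb, against a median of 0.948 per kb over tested coding genes (quartiles 0.571 and 1.42). CSF3 held 1.99 per kb, IL11 1.75, CSF1 1.43, TSLP 1.36, CSF2 1.27 and IL6 0.655, and IL1A and IL18 held none. These are letter counts, and methylation was not measured here.

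LIF (ENSG00000128342, GRCh38 chromosome 22, 30240447 to 30246851, minus strand) encodes leukemia inhibitory factor, a gp130 cytokine that acts through the receptor encoded by LIFR. It stood at 220, 302 and 245 CPM with the control guide, and its HRAS guide libraries gave 192, 167 and 183 CPM. The lowest control library lay above the highest HRAS guide library, and control replicate 2 stood apart at the top. The means were 256 ± 42.0 and 180 ± 12.8 CPM (SD, n = 3), so the HRAS guide group stood at 70.5% of control. This is a log2 fold change of -0.51 ± 0.12 (SE; 95% interval -0.77 to -0.24), with an edgeR adjusted p of 0.732. In bulk RNA such as this, fewer cells making a transcript and less of it per cell cannot be told apart. Exons of LIF overlap 2 antisense genes on 4.41% and 2.32% of its exon bases, and reads there cannot be assigned without strand.

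IL11 (ENSG00000095752, chromosome 19, 55364389 to 55370463, minus strand), which encodes interleukin-11, stood at 22.8, 31.3 and 27.3 CPM in the control libraries and at 27.7, 22.0 and 25.4 CPM in the HRAS guide libraries. The groups overlapped throughout, and the log2 fold change was -0.12 ± 0.14 (SE; 95% interval -0.42 to 0.19.) IL6 (ENSG00000136244, chromosome 7, 22725884 to 22732002), which encodes interleukin-6, gave 9, 20 and 10 counts in the control libraries and 11, 4 and 4 counts in the HRAS guide libraries. Those 58 counts in all kept it out of the test. Without the filter on low counts its log2 fold change was -1.004 ± 0.550 (SE), with an edgeR adjusted p of 1.00. Part of this small signal may belong elsewhere, since 20.7% of the exon bases of IL6 overlap an antisense gene.

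CSF2 (ENSG00000164400, chromosome 5, 132073790 to 132076170, plus strand) encodes granulocyte-macrophage colony-stimulating factor. It stood at 10.04, 12.03 and 10.8 CPM with the control guide, and its HRAS guide libraries gave 6.72, 7.85 and 8.33 CPM. Every HRAS guide library lay below every control library. The means were 11.0 ± 1.00 and 7.63 ± 0.83 CPM (SD, n = 3), 69.6% of control, and the log2 fold change was -0.52 ± 0.13 (SE; 95% interval -0.81 to -0.23.) The edgeR adjusted p was 0.904, and this rests on 1617 counts over all 6 libraries, the fewest of any tested cytokine.

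CSF3 (ENSG00000108342, chromosome 17, 40015361 to 40017813, plus strand), which encodes granulocyte colony-stimulating factor, stood at 33.6, 47.6 and 36.9 CPM in the control libraries and at 31.2, 28.9 and 30.8 CPM in the HRAS guide libraries. The groups did not overlap, but control replicate 1 stood close above HRAS guide replicate 1, and control replicate 2 was again the highest. Its log2 fold change was -0.38 ± 0.13 (SE; 95% interval -0.67 to -0.08) and an edgeR adjusted p of 1.00. Without control replicate 2 it was -0.22. CSF1 (ENSG00000184371, chromosome 1, 109910242 to 109930992, plus strand) encodes macrophage colony-stimulating factor. It stood at 34.5, 38.6 and 37.4 CPM in the control libraries and 35.2, 33.8 and 34.5 CPM in the HRAS guide libraries, with a log2 fold change of -0.10 ± 0.09 (SE) and a 95% interval of -0.31 to 0.11.

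IL1A (ENSG00000115008, chromosome 2, 112773915 to 112784590, minus strand) stood at 204, 153 and 195 CPM with the control guide, and its HRAS guide libraries gave 150, 170 and 153 CPM. Control replicate 2, the highest library for LIF and CSF3, was the lowest control library for IL1A, and it placed the groups in overlap. The log2 fold change was -0.22 ± 0.11 (SE; 95% interval -0.48 to 0.04.) IL1B (ENSG00000125538, chromosome 2, 112829751 to 112836903, minus strand) differed little, at 178, 161 and 174 CPM against 160, 170 and 158 CPM. Its log2 fold change was -0.07 ± 0.08 (SE; 95% interval -0.25 to 0.10.)

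IL18 (ENSG00000150782, chromosome 11, 112143251 to 112164117, minus strand) was the 1 tested cytokine with a positive log2 fold change. It stood at 25.8, 28.1 and 23.7 CPM in the control libraries and at 30.2, 28.6 and 31.4 CPM in the HRAS guide libraries. The groups were narrowly separate, with control replicate 2 just below HRAS guide replicate 2. The log2 fold change was 0.22 ± 0.10 (SE; 95% interval -0.01 to 0.45) and an edgeR adjusted p of 1.00. TSLP (ENSG00000145777, chromosome 5, 111070062 to 111078024), an epithelial cytokine related to interleukin-7, had 0 counts in each library. A count of 0 allows up to 3 counts, or between 0.0922 and 0.121 CPM depending on the library, for counting error only. CRLF2, which encodes its specific receptor chain, also had 0 counts in each library.

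**Figure D2:**
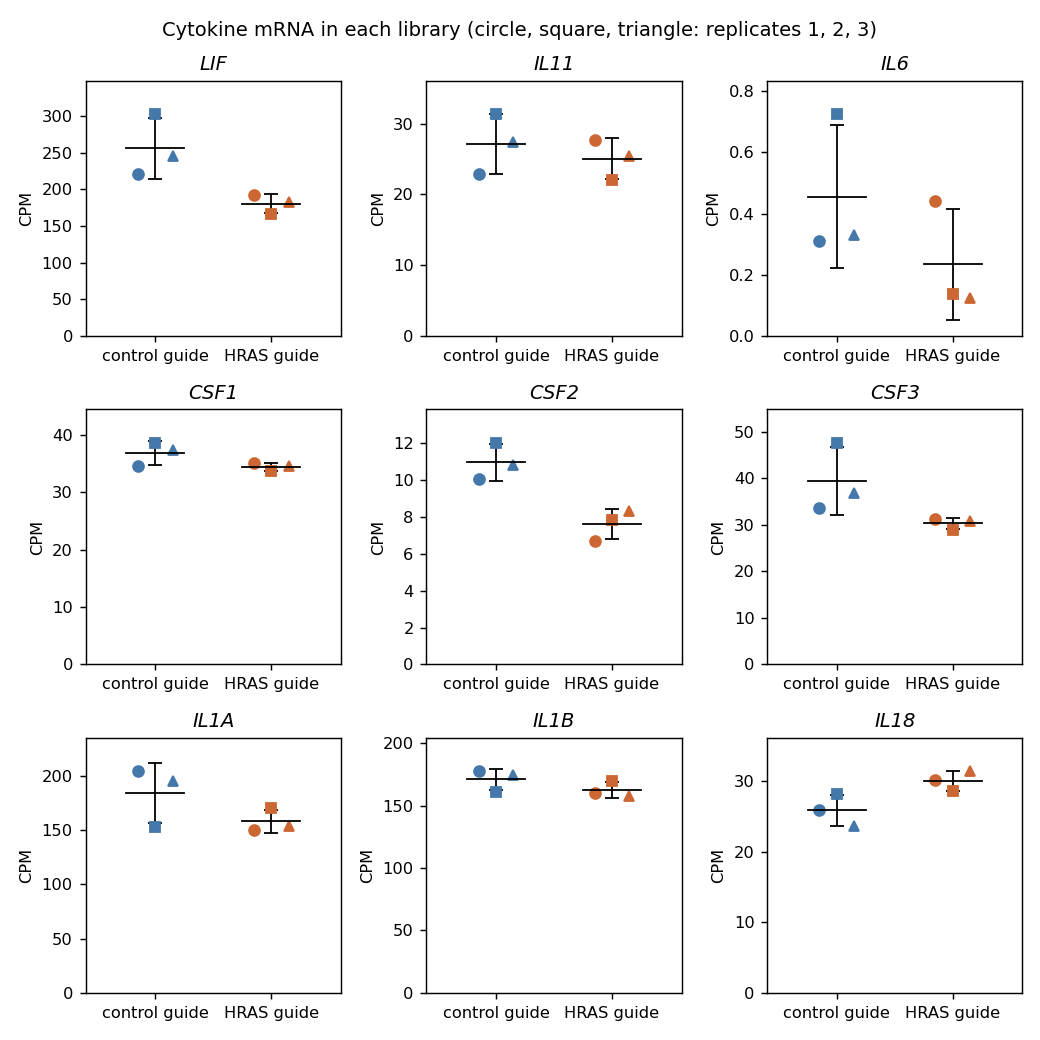
CPM of the 9 detected cytokine genes in each library, with the control guide on the left and the HRAS guide on the right of each panel; symbols give the replicate number, bars the mean and SD of 3 libraries, and each axis starts at 0. LIF, CSF2 and CSF3 separate downwards, IL18 separates upwards by a narrow margin, and control replicate 2 is the highest control library for LIF and CSF3 and the lowest for IL1A.

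Set side by side, the gp130 cytokines had a median log2 fold change of -0.31 over 2 tested genes, the colony-stimulating factors -0.38 over 3, and the interleukin-1 family -0.07 over 3, against -0.0014 over all 19836 tested genes. In all, 7 of the 8 tested cytokines were negative, as were 50.5% of all tested genes. Groups did not overlap in the lower direction for 3 of the 8 (4.0% of all tested genes) and in the higher direction for 1 (4.81%). At an unadjusted p under 0.05 in edgeR there were 3 of the 8, LIF, CSF2 and CSF3, where 3.34% of all tested genes had such a p, 1.70% in the lower direction. Without control replicate 2 the gp130 median was -0.19, the colony-stimulating factor median -0.22 and the interleukin-1 family median -0.11. Differences between classes, and between genes of a class, were not tested.

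The cytokine transcripts differ widely in GC content. For LIF, CSF3, IL11, CSF1 and IL1A the order of the libraries within each group went with the GC trends. For IL18 it did not. Median transcript GC was 63.0% for IL11, 59.9% for CSF3, 58.8% for LIF and 58.4% for CSF1, and 39.1% for IL1A and 41.3% for IL18. Control replicate 2, whose counts leaned most to GC-rich genes (rho 0.61), had the highest LIF, CSF3 and IL11 and the lowest IL1A of the control libraries, but also the highest level of the GC-poor IL18. Control replicate 1 (rho -0.46) had the lowest LIF, CSF3 and IL11 and the highest IL1A. HRAS guide replicate 2 (rho -0.49) likewise had the lowest LIF, CSF3 and IL11 of its group and the highest IL1A.

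A correction of each library for GC content and transcript length narrowed the spread of LIF, CSF3, IL11 and IL1A within both groups. The SD of CSF1, whose order also went with the GC trends, widened. It went from 2.10 to 2.42 CPM in the control group and from 0.70 to 1.26 CPM with the HRAS guide. That of CSF2 widened in the control group alone, from 1.00 to 1.11 CPM. LIF then stood at 235, 271 and 248 CPM with the control guide, and its HRAS guide libraries gave 187, 177 and 182 CPM. The nearest libraries of the groups lay further apart, at 235 and 187 CPM where they had been at 220 and 192 CPM. The log2 fold change of LIF was not larger, at -0.46 ± 0.06 against -0.51 ± 0.12 before the correction (SE). Its SE was smaller, and the edgeR adjusted p was 0.00692. LIF was the 1 cytokine among the genes that passed in the lower direction after the correction (0.190% of 19489 genes). The call ended without control replicate 3 (edgeR adjusted p = 0.0744) and when any 1 HRAS guide library was dropped (0.0586, 0.0778 and 0.101 for replicates 1, 2 and 3), with log2 fold changes between -0.51 and -0.41 over all 6 such fits.

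IL1A, whose groups had overlapped, became separate: 179, 186 and 187 CPM in the control libraries against 159, 155 and 155 CPM in the HRAS guide libraries. Its corrected log2 fold change was -0.24 ± 0.04 (SE; 95% interval -0.33 to -0.14) and an edgeR adjusted p of 0.0924. CSF3 stood at 37.1, 41.1 and 37.8 CPM against 29.8, 31.2 and 30.6 CPM, with -0.34 ± 0.06 (SE) and an edgeR adjusted p of 0.113. CSF2 was nearly unmoved at -0.53 ± 0.11 (SE), with an edgeR adjusted p of 0.210. Without control replicate 2, the corrected fit also called IL1A (edgeR adjusted p = 0.0159) and CSF3 (0.0441). That fit called 131 of 20111 genes, 104 of them lower, and the combination was chosen after seeing the data.

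IL18 widened as well: its SD went from 2.20 to 5.35 CPM in the control group and from 1.40 to 2.75 CPM with the HRAS guide (n = 3). After the correction its control libraries stood at 23.7, 32.6 and 23.0 CPM and its HRAS guide libraries at 31.2, 26.6 and 31.5 CPM, so the groups overlapped, with 0.18 ± 0.13 (SE) and a 95% interval of -0.10 to 0.45. The corrected values of IL11 (-0.08 ± 0.07), CSF1 (-0.08 ± 0.07) and IL1B (-0.09 ± 0.04) had 95% intervals that included 0, and IL1B separated narrowly, at 168 CPM or more in control libraries and 166 CPM or less in the others. Corrected groups did not overlap in the lower direction for 5 of the 8 cytokines, where 6.28% of all genes in that fit did so, and in the higher direction for 0 (5.98%).

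**Figure D3:**
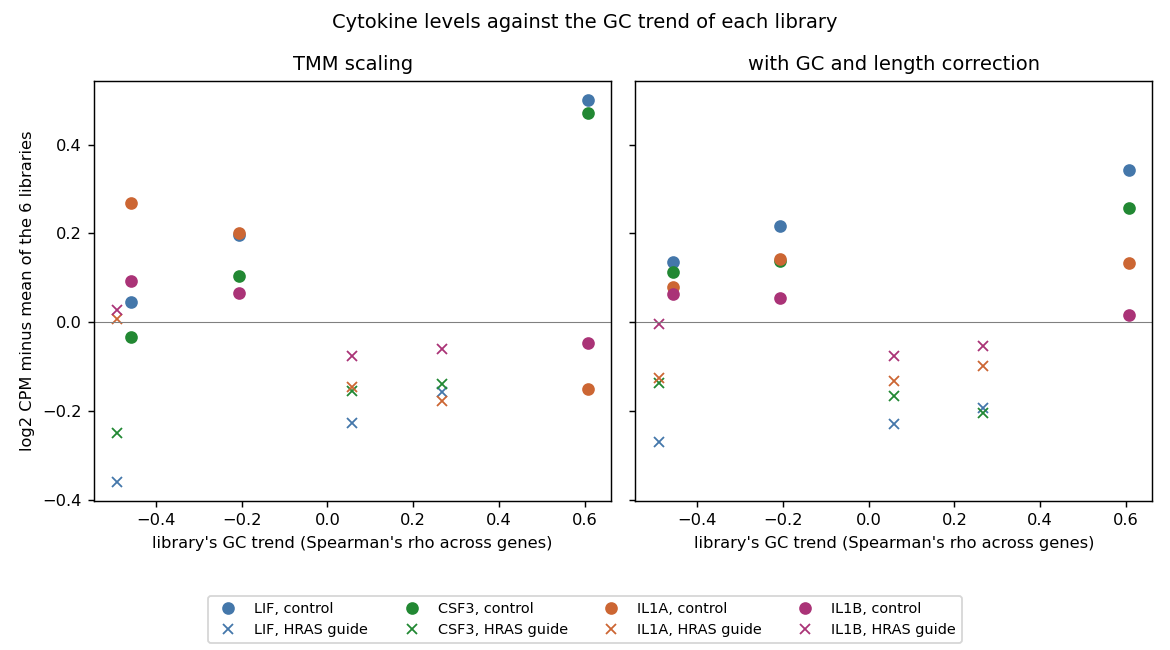
Log2 CPM of LIF, CSF3, IL1A and IL1B in each library, relative to the gene's mean over 6 libraries, against the GC trend of the library (Spearman's rho across genes), with TMM scaling on the left and after the correction on the right; circles are control guide and crosses HRAS guide libraries. On the left LIF and CSF3 are highest, and IL1A lowest among controls, in the library at a rho of 0.61; on the right each control value of LIF, CSF3 and IL1A lies above each HRAS guide value of that gene.

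The GC trend was negative in control libraries 1 and 3 and in HRAS guide library 2, and positive in the other libraries, which gives 2 sets that each hold both guides. Within the negative and positive sets LIF differed by -0.48 and -0.69 on the log2 scale, CSF2 by -0.39 and -0.65, and CSF3 by -0.28 and -0.61. IL1A differed by -0.23 and -0.01, and IL18 by 0.21 and 0.13. After the correction IL1A differed by -0.24 and -0.25, LIF by -0.45 and -0.55, and IL18 by 0.18 and -0.06, a change of direction for IL18 in the positive set. These are values of 3 libraries a set, 1 of them the only library of its guide in that set, with no test. With the set as a covariate, edgeR called LIF (adjusted p = 0.000219) and CSF3 (adjusted p = 0.0274), at -0.59 ± 0.07 and -0.46 ± 0.09 (SE). Both were among the 0.353% of genes it called lower. The sets did not balance the GC trend between the guides. In the positive set rho was 0.61 in the control library against 0.27 and 0.06 with the HRAS guide. In the negative set it was -0.46 and -0.21 against -0.49. How far this entered the calls was not tested.

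**Figure D4:**
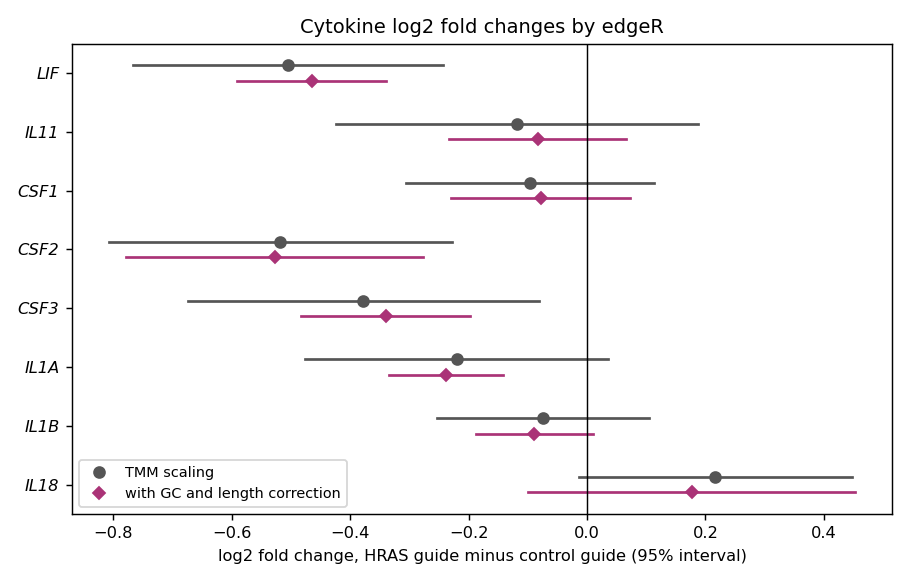
Log2 fold change of the 8 tested cytokine genes (HRAS guide minus control guide) with 95% intervals, from edgeR with TMM scaling (circles) and with the GC and length correction (diamonds). The LIF, CSF2 and CSF3 intervals lie below 0 in both, the IL1A interval only after the correction, and the IL18 interval includes 0 in both.

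Genes whose library-by-library pattern was most like LIF, among 11933 others at 5 CPM or more, were LIF-AS2, FOSB and MAFF, with root mean square differences of 0.052, 0.053 and 0.056 on the log2 scale over 6 libraries. LIF-AS2 is the antisense gene that shares 4.41% of the exon bases of LIF, so the pair can share reads. FOSB and MAFF encode basic leucine zipper transcription factors and stood at -0.44 ± 0.10 and -0.40 ± 0.12 (SE). Fold changes near that of LIF follow from choosing genes by their likeness to it over the same libraries. Nearest to CSF2 were KCND1 (0.056), the identifier ENSG00000273599 (0.058) and KRT86 (0.073), and nearest to IL18 were RPL32P3 (0.026), DUSP12 (0.034) and KRT23 (0.038). None of these 9 genes passed in edgeR. Among the cytokines the closest pair was CSF3 and LIF (0.074), followed by CSF1 and IL1B (0.099), and the most unlike pair was CSF2 and IL18 (0.386). These are descriptions over libraries that share the GC trends above.

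Promoter sequences were found for 6 of the 10 genes in the RefSeq table (GRCh38.p14), which gives 250 bases before and 50 after each start site. CSF2 is shown as a cytokine whose groups separated and IL11 as one whose groups overlapped, each with the 250 bases before its start (chr5:132073539-132073788, plus strand, and chr19:55370464-55370713, minus strand) and motif matches in capitals.
CSF2 promoter: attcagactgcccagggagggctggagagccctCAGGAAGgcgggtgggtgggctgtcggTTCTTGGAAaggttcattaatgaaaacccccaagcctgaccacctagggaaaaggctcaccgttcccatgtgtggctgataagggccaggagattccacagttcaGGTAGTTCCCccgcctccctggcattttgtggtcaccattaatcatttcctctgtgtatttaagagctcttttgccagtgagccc
IL11 promoter: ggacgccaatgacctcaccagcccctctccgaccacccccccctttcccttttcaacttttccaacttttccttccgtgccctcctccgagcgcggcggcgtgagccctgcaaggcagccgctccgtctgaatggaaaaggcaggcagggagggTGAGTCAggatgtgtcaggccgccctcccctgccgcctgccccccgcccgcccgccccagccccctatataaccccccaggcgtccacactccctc
The motifs were AP-1 (TGANTCA), CRE (TGACGTCA), an NF-kB type, an ETS type (CNGGAAG), a STAT type (TTCNNNGAA) and TATAAA, on both strands. CSF2 held 1 NF-kB type match, 85 bases before the start, 1 ETS type and 1 STAT type match, and no AP-1 match. IL11 held 1 AP-1 match, 96 bases before the start, and no other. IL1A held 2 AP-1 matches in the window of its first listed start, at -12 and 39. AP-1 matches occur in 7.71% of all 35116 promoter windows, NF-kB type matches in 25.6%, ETS type in 33.6% and STAT type in 7.66%. A match is a description of letters, and binding was not measured.

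Receptors and relatives of these cytokines, and genes of AU-rich mRNA decay, were present at differing levels. None passed the test in edgeR in either direction. SOCS3, IL3RA, CSF1R, IL36G, IL17C and, among the decay genes, ZFP36 had an unadjusted p under 0.05, each lower with the HRAS guide. Of all 19836 tested genes, 3.34% had such a p in edgeR, 1.70% in the lower direction. The number of genes tested is given with each list below. For the gp130 group, IL6ST stood at 62.6 ± 18.1 CPM, OSMR at 102 ± 17.4, IL11RA at 16.0 ± 2.31, IL6R at 12.8 ± 0.24 and LIFR at 5.79 ± 1.52 CPM with the control guide (SD, n = 3). Of the 15 receptor and JAK-STAT3 genes, all tested, 8 were negative and 7 positive with a median of -0.03. SOCS3, which encodes a feedback inhibitor of gp130 signalling and is itself a STAT3 target, had the smallest p: 40.7 ± 5.48 against 30.3 ± 3.91 CPM (SD, n = 3), with -0.43 ± 0.13 (SE), groups apart and an edgeR adjusted p of 1.00. After the correction it stood at -0.38 ± 0.07, with an edgeR adjusted p of 0.0922. CNTFR, at -0.70 ± 0.37, was next but lay under 1 CPM. Among other gp130 ligands, 5 of 8 were tested and 4 were negative, with a median of -0.17, led by CNTF (-0.31 ± 0.20; 38.6% of its exon bases lie in the readthrough gene ZFP91-CNTF) and CLCF1 (-0.17 ± 0.12).

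Receptors for CSF2 and CSF3 were nearly absent, while CSF1R, which encodes the receptor for CSF1, was present at a low level. CSF2RA and CSF2RB, the chains of the CSF2 receptor, had means at or below 0.035 CPM in both groups, and CSF3R at 0.116 ± 0.075 and 0.0535 ± 0.0478 CPM (SD, n = 3). Of the 8 genes in this list 2 were tested: CSF1R, at 2.88 ± 0.57 against 2.04 ± 0.28 CPM (-0.49 ± 0.20), and IL3RA, at 3.83 ± 0.45 against 2.82 ± 0.38 CPM (-0.44 ± 0.17).

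The interleukin-1 receptor was present, with IL1R1 at 72.7 ± 14.5 CPM and its partner IL1RAP at 24.96 ± 8.63 CPM with the control guide (SD, n = 3), while the decoy receptor IL1R2 lay at 0.435 ± 0.110 CPM. Of 15 receptor and adaptor genes 14 were tested, 10 positive and 4 negative with a median of 0.04. IL1RL2 (0.32 ± 0.15), the interleukin-36 receptor, and the kinase IRAK2 (-0.10 ± 0.08) had the smallest p. The IL1RL2 groups were apart in the higher direction, at 2.72 to 3.21 CPM in control libraries against 3.59 to 3.90 CPM with the HRAS guide. Among 9 further family ligands and antagonists 4 were tested, 3 positive and 1 negative with a median of 0.04. IL36G, an epithelial interleukin-36 ligand, stood at 27.6 ± 1.65 against 22.4 ± 1.10 CPM (SD, n = 3), with groups apart and -0.30 ± 0.10 (SE), and IL36RN at 0.20 ± 0.31. For the processing of interleukin-1 and interleukin-18, 15 of 16 genes were tested, 8 negative and 7 positive with a median of -0.03. CASP4 (-0.17 ± 0.10) and CASP1 (0.08 ± 0.10) had the smallest p. Their groups were apart, in the lower direction for CASP4 and in the higher direction for CASP1.

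Of 6 receptors and relatives of TSLP, 4 were tested, 3 negative and 1 positive with a median of -0.03, led by IL7 (-0.31 ± 0.41) and IL7R (0.11 ± 0.21). Of 21 other interleukins 8 were at 0 in all libraries and 6 were tested, 4 negative and 2 positive with a median of -0.03. IL17C, an epithelial interleukin, stood at 2.08 ± 0.30 against 1.255 ± 0.293 CPM (SD, n = 3), with groups apart and -0.73 ± 0.24 (SE), and IL17D, which overlaps an antisense gene, at -0.05 ± 0.21. All 18 genes of AU-rich mRNA decay were tested, 14 negative and 4 positive with a median of -0.02. ZFP36, whose protein tristetraprolin binds AU-rich elements and promotes decay, stood at 76.6 ± 3.68 against 55.4 ± 3.49 CPM (SD, n = 3), with groups apart, -0.47 ± 0.09 (SE) and an edgeR adjusted p of 0.417. DESeq2 called ZFP36 lower (adjusted p = 0.0138), among the 0.121% of genes it called lower. ZFP36L2, from the same gene family, stood at -0.19 ± 0.09. After the GC and length correction the ZFP36 control libraries spread more widely, at 82.1, 64.4 and 82.0 CPM. The HRAS guide libraries then stood at 51.8, 57.7 and 58.4 CPM, and edgeR called no gene of this list.

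**Figure D5:**
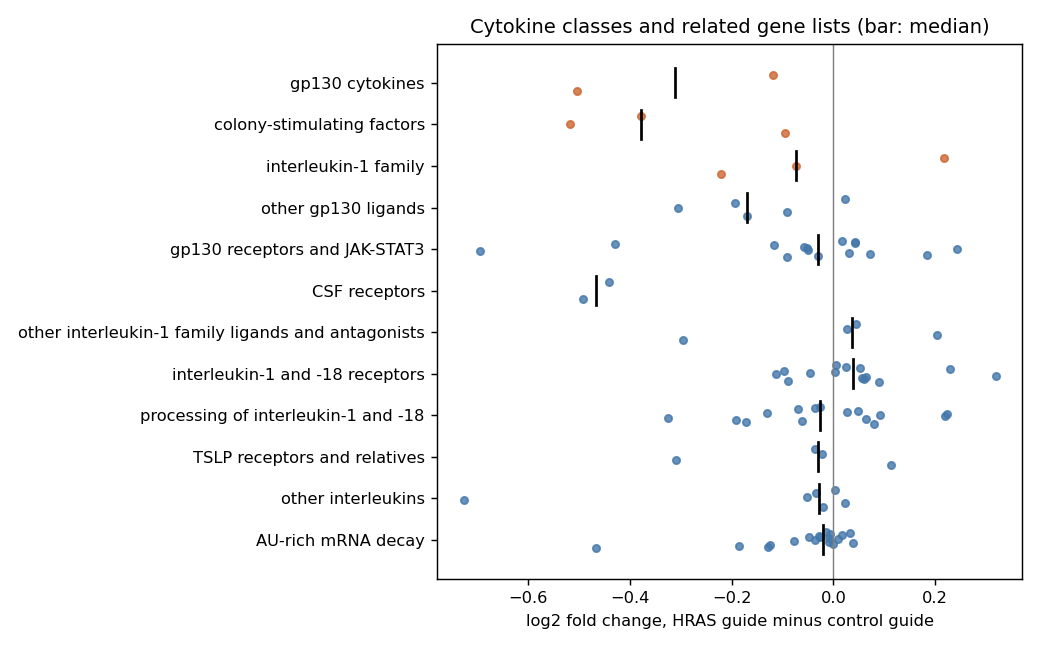
Log2 fold change (HRAS guide minus control guide) of each tested gene in the 3 cytokine classes (orange) and in 9 related lists (blue), with a bar at each median. The gp130 and colony-stimulating factor medians lie at -0.31 and -0.38, the interleukin-1 family median at -0.07, and the receptor bar furthest from 0, at -0.47, rests on 2 low-level genes.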

How the data were processed

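The authors deposited raw counts: whole numbers for each Ensembl gene and library, without normalization. HISAT2, StringTie, DESeq2 and hg38 are named in the submitters' processing notes without role or version; how reads were counted, on which annotation and whether by strand is not stated. Of 60664 rows, 1 held no values and was left out. A table of gene names gave symbols for 60462 identifiers, and coordinates, GC content and lengths came from GENCODE 29 (GRCh38).

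The comparison used edgeR 4.0.16 in R 4.3.3 (quasi-likelihood, two-sided, guide as the only term), after filterByExpr (19836 genes) and TMM scaling, with Benjamini-Hochberg adjustment over all tested genes and a threshold of 0.05. SE comes from the F statistic and intervals are at 95%. For the correction, log2 CPM of each library (prior count 2) was regressed on splines of GC content and log10 length (5 and 4 degrees of freedom, robust regression), and the fitted trend entered edgeR as offsets for 19489 genes. Within-set differences use log2(CPM + 0.5). Length scaling uses 1 principal transcript per gene. Scripts were tested on simulated data.

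The members, lists and this correction were chosen with earlier results of these data known. The 10 members are named whatever their values; each related list gives its 2 genes of smallest p, any gene past the threshold, and receptor levels; the 3 most similar genes are given for the cytokine of smallest p in each class. Alternatives were DESeq2 1.42.0, limma-voom (limma 3.58.1), 2 other scalings, 2 other filters, a replicate block, the GC set as a covariate, and each library left out.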

Additional observations from a re-analysis of the deposited data

How the results depend on the processing

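Over all alternatives the 8 tested cytokines gave 168 values, none with a changed direction; 160 stayed on the same side of the threshold and 8 moved past it. The number of cytokines called was 0 without correction and 1 after the GC and length correction (LIF), 2 with the GC set as a covariate (LIF and CSF3) and 1 without the filter on low counts (LIF). LIF had an adjusted p of 0.0744 in DESeq2. With 1 library left out the number ran from 0 to 3, and the 3 (LIF, CSF3 and IL1A) needed both the correction and the loss of control replicate 2, a combination chosen after seeing the data. Over all genes 2 passed, and 39 after the correction, 81 with the covariate, 57 without the filter, 24 in DESeq2, and 1 each with limma-voom, DESeq2 size factors, a filter of 1 CPM in 3 libraries or the replicate block. With 1 library left out this number ran from 1 to 24, and with the correction as well it was 36, 131 and 8 without control replicates 1, 2 and 3 and 8, 17 and 7 without HRAS guide replicates 1, 2 and 3. The median of the colony-stimulating factors ran from -0.49 without control replicate 1 to -0.22 without control replicate 2, that of the gp130 cytokines from -0.42 to -0.19 without the same libraries, and that of the interleukin-1 family from -0.05 to -0.11. Deviations of same-numbered libraries from their group means correlated at -0.54, -0.66 and -0.14. Such deviations include the GC trends of the libraries, so they do not show whether same-numbered cultures were handled together. With the replicate block 0 cytokines were called. The cause of these changes was not tested. IL6 had too few counts for the test, and for TSLP a count of 0 sets only an upper limit.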
